A study of Homo sapiens with 12 samples.

Results

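The genes described here encode the enzymes and transporters of glycolysis, gluconeogenesis and glycogen metabolism in HepG2, an established cell line from a human liver cancer. They were taken by gene symbol from the deposited count table, and all 37 symbols were found among its 60612 gene rows. At least 1 read was counted for 36 of them, and 35 passed the filter on low counts and were tested. The lactate dehydrogenase gene LDHB and the liver glycogen synthase gene GYS2 did not pass.

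RNA selected with poly(dT) beads was sequenced after exposure of HepG2 cells to 0.001 µM 2,4-D, a herbicide that acts as a synthetic auxin in plants, for 10, 30 or 360 min, and from cells labelled as untreated at 0 min. Each of the 4 groups had 3 biological replicates. All groups are of the same line, no genetic change is named, and cells were detached with trypsin before RNA was extracted. No untreated libraries of the later times were analysed, so a difference from 0 min holds the exposure and the elapsed time, which cannot be told apart. The comparisons with 0 min share the same 3 untreated libraries, and the comparisons of consecutive times share a group with them.

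The libraries held 29766148 to 83539763 counts, and the 10 min libraries were the smallest at 29766148 to 31528822 counts. The mitochondrial genome gave 3.55 to 4.39% of the counts in 7 libraries, all 10 min libraries among them, and 2.52 to 2.74% in the other 5. In CPM (counts relative to the library total), over the 12 libraries the hepatocyte genes ALB, AFP, APOA1, APOB, SERPINA1 and HNF4A had medians of at least 298 CPM, and TTR of 58.2 CPM. Of the markers of other cell types, PTPRC and COL1A2 were at 0 in every library, COL1A1, DES and GFAP reached no more than 0.333 CPM, and PECAM1 lay between 0.957 and 1.75 CPM. The 37 genes together took 1.63% to 1.81% of the counts of a library. In bulk RNA, less RNA per cell and fewer cells with the RNA cannot be told apart.

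Glycolysis splits glucose into pyruvate in the cytosol and yields ATP and NADH, and lactate dehydrogenase regenerates NAD+ by turning pyruvate into lactate, which leaves the cell through monocarboxylate transporters. Gluconeogenesis runs the pathway backwards around its irreversible steps, and glycogen stores glucose as a branched polymer. The adult hepatocyte uses liver isoforms such as liver pyruvate kinase and liver glycogen synthase and releases glucose to the blood, whereas liver cancer cells often express isoforms of other tissues.

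Levels in untreated cells are given per length, as CPM per kb of exon at 0 min (mean ± SD, n = 3). GAPDH, the glyceraldehyde 3-phosphate dehydrogenase, had the highest level of the 37 genes at 1210 ± 23, and the enolase gene ENO1 followed at 888 ± 28.9. The aldolase gene ALDOA stood at 386 ± 9.65, LDHA at 226 ± 9.13, the triose phosphate isomerase gene TPI1 at 198 ± 7.88 and the phosphoglycerate mutase gene PGAM1 at 179 ± 7.18. The pyruvate kinase gene PKM was at 117 ± 2.29 and the phosphoglycerate kinase gene PGK1 at 94.6 ± 3.03 CPM per kb. These 8 genes, 7 of which act from the aldolase step to pyruvate, stood above every other member.

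Most isoform families were dominated by 1 gene, but the hexokinases and the PFKFB genes described below were not. PFKFB4 took 47.6% ± 0.818 (SD, n = 3) of the summed PFKFB level per length at 0 min. HK2 and HKDC1, which phosphorylate glucose in the first step, stood close together at 47.1 ± 1.51 and 43.5 ± 0.758 CPM per kb at 0 min. HK1 was near the detection floor at 0.0416 ± 0.00501 CPM per kb, with 0 to 28 counts per library. Summed per family and length at 0 min, HK2 took 51.9% ± 0.54 (SD, n = 3) of the hexokinase level, PFKL 76.8% ± 0.487 of phosphofructokinase and ENO1 96.7% ± 0.35 of enolase. ALDOA took 95.1% ± 0.0407 of ALDOA plus ALDOC, and PKM took 90.6% ± 0.333 of PKM plus PKLR, the liver and red cell pyruvate kinase gene. The minor isoforms ranged from PFKM, the muscle phosphofructokinase gene, at 0.319 ± 0.0154 CPM per kb and ENO3, the muscle enolase gene, at 3.97 ± 0.459 to ALDOC at 20 ± 0.672 and ENO2 at 26.3 ± 1.95. PFKP was at 8.25 ± 0.166 and PKLR at 12.1 ± 0.251 CPM per kb.

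**Figure D1:**
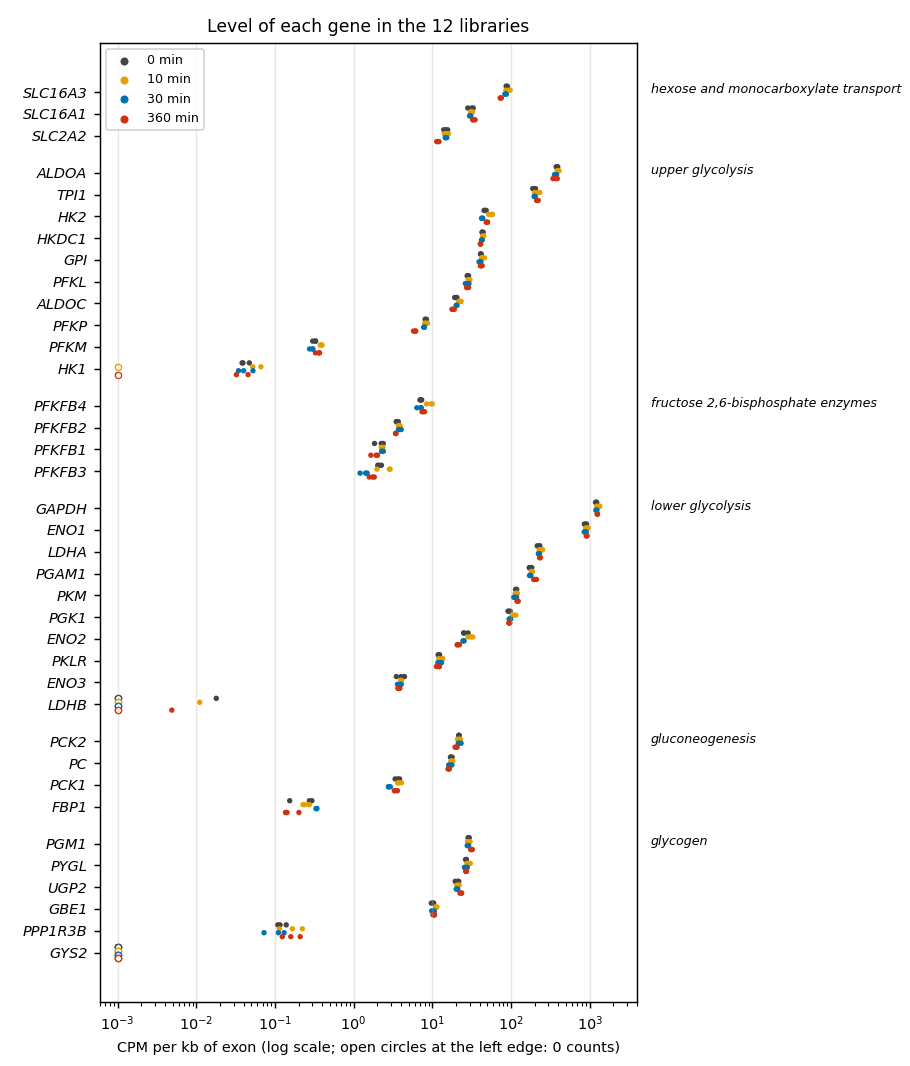
Level of the 37 genes in CPM per kb of exon (log axis) in each of the 12 libraries, coloured by exposure time and grouped by role. Open circles at the left edge mark libraries with 0 counts. GAPDH and ENO1 lie highest, HK1, LDHB and GYS2 are near or at 0, and the times lie close together within most genes.

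The 4 bifunctional enzymes that make and break down fructose 2,6-bisphosphate, the allosteric activator of phosphofructokinase, were less abundant. PFKFB4 was highest at 7.16 ± 0.179 CPM per kb at 0 min and PFKFB2 followed at 3.58 ± 0.109, while PFKFB1, the liver isoform, at 2.16 ± 0.278 and PFKFB3 at 2.13 ± 0.116 lay within each other's SD. Of the transporters, SLC16A3 (MCT4, a lactate exporter) stood at 88.4 ± 1.78, SLC16A1 (MCT1) at 31 ± 2.49 and SLC2A2 (GLUT2, the glucose transporter of hepatocytes) at 14.8 ± 0.85 CPM per kb. Among gluconeogenic genes, the mitochondrial phosphoenolpyruvate carboxykinase gene PCK2 was at 21.8 ± 0.179, the pyruvate carboxylase gene PC at 17.4 ± 0.44 and the cytosolic carboxykinase gene PCK1 at 3.62 ± 0.235 CPM per kb. Of the glycogen genes, PGM1 (phosphoglucomutase) was at 29 ± 0.482, PYGL (liver glycogen phosphorylase) at 26.9 ± 0.314, UGP2 (UDP-glucose pyrophosphorylase) at 20.8 ± 1.16 and GBE1 (branching enzyme) at 10.1 ± 0.374 CPM per kb.

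Several of the 37 genes were barely detected. GYS2 had 0 counts in all 12 libraries, which allows up to 0.0359 to 0.101 CPM per library at 3 counts. This limit was taken on the unscaled library total and covers counting error only. Of the 3132 exon bases of GYS2, 2742 also lie in exons of AC010197.2 on the same strand (52 counts in all). The limit thus does not cover reads assigned to that gene or dropped as shared. LDHB had 0 to 2 counts per library and shares 997 exon bases with AC010197.2. FBP1, the fructose 1,6-bisphosphatase of gluconeogenesis, had 8 to 49 counts per library, and PPP1R3B, which targets protein phosphatase 1 to glycogen, had 15 to 64. Outside the 37 genes, the glucose 6-phosphatase gene G6PC1 averaged 0.932 ± 0.0525 CPM at 0 min (SD, n = 3). The glycogen synthase gene GYS1 averaged 43 ± 1.44 CPM and the brain-type phosphorylase gene PYGB 197 ± 6.21 CPM.

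Some rows share exonic sequence with neighbours, and the strand setting of the counting is not given in the sources used here. FBP1 overlaps the antisense gene PCAT7 over 283 bases, and PCAT7 had 1978 counts in all, against 266 for FBP1. PFKM overlaps SENP1 on the opposite strand (16544 counts against 1459) and ENO3 overlaps PFN1 (328371 against 9940). In these 3 genes, and in GYS2 and LDHB with AC010197.2, the neighbour had more counts than the gene itself, and their values are the most uncertain. Neighbours with fewer counts than the gene overlap, among others, ALDOA (AC093512.2, 113149 against 888401), SLC16A3 (CSNK1D, 83202 against 456727), PFKFB2 (YOD1, 11499 against 22534), PGM1 (ITGB3BP, 13225 against 74993) and PFKFB4 (UCN2, 1509 against 27808). GAPDH has 62 pseudogene rows, which held 0.179% of the counts of gene and pseudogenes together, and for TPI1 this share was 1.21%.

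At 10 min none of the 35 tested genes passed the test against 0 min (edgeR quasi-likelihood test, Benjamini-Hochberg adjusted p under 0.05), where 0.0169% of all 17779 genes did, 0.0112% higher and 0.00562% lower. The unadjusted p was under 0.05 for 13 of the 35, and for 10.9% of all genes. Log2 fold changes were above 0 for 34 of 35, with a median of 0.08, while 48.9% of all genes tested lay above 0 and their median was -0.003. With scaling to total counts 27 of 35 lay above 0, with 40.3% of all genes. In 11 of 35 genes all 10 min libraries lay above all untreated ones and in 0 below, where 7.73% and 7.72% of all genes did. HK1, with its few counts, was the 1 gene below 0, at -0.07 ± 0.75 (SE).

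The smallest p-values at 10 min belonged to PFKFB4, HK2 and PGK1. PFKFB4 had 61.2, 51.7 and 59.1 CPM in the 10 min libraries, against 42.6, 44.8 and 43.7 CPM at 0 min, a log2 fold change of 0.39 ± 0.06 (SE, edgeR adjusted p = 0.11). HK2 had 354, 315 and 338 CPM at 10 min, against 276, 294 and 286 CPM at 0 min (0.23, SE 0.04, adjusted p = 0.12). For PGK1, whose enzyme yields the first ATP of the pathway, these were 636, 568 and 591 CPM at 10 min and 506, 539 and 519 CPM at 0 min (0.20, SE 0.04, adjusted p = 0.13). In each of these genes the groups did not overlap, and replicate 2 was the lowest of the 10 min libraries. ALDOC followed at 0.17 ± 0.04 (adjusted p = 0.16), ENO2 at 0.22 ± 0.05 (adjusted p = 0.17) and GBE1 at 0.14 ± 0.04 (adjusted p = 0.23).

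The calls at 10 min moved with the tool, the filter and 1 library. DESeq2 called 5 of these genes higher, with adjusted p = 9.6e-06 for PFKFB4, 4.7e-05 for HK2, 0.00055 for PGK1, 0.0079 for ENO2 and 0.035 for ALDOC. The share of all genes that DESeq2 called is not given here, and the share above is that of the edgeR fit. The DESeq2 count thus has no background beside it. With no filter on low counts edgeR called PFKFB4 (adjusted p = 0.041). Without 10 min replicate 2, it called PFKFB4 (0.46, adjusted p = 0.022) and HK2 (0.27, adjusted p = 0.028). All 10 min libraries and 1 untreated library had the higher mitochondrial share. Against that library alone, the log2 ratio of means was 0.43 for PFKFB4, 0.28 for HK2, 0.24 for PGK1, 0.22 for ALDOC and 0.11 for ENO2. The part of the lower depth of the 10 min libraries in these values was not tested.

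**Figure D2:**
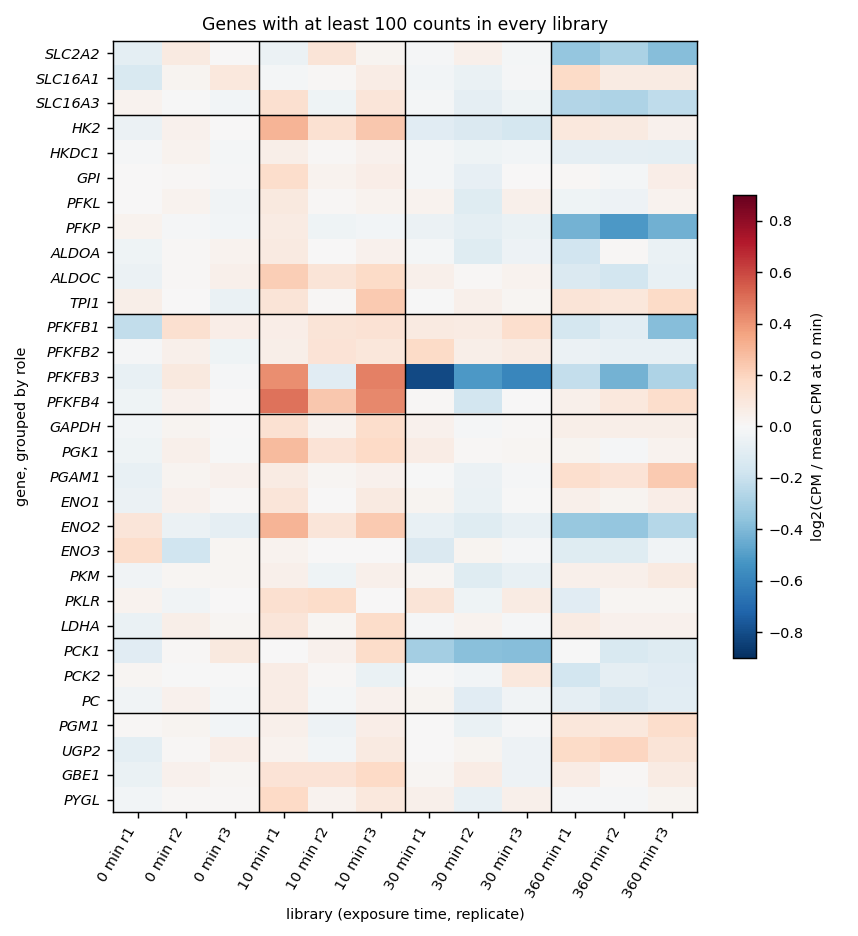
Log2 ratio of CPM to the mean at 0 min (colour) for the 31 genes with at least 100 counts in every library (rows, grouped by role) in each library (columns, by exposure time and replicate). HK2, PFKFB4 and PGK1 lie above the 0 min mean in all 10 min libraries, PFKFB3 and PCK1 below it in all 30 min libraries, and SLC2A2, SLC16A3, PFKP and ENO2 below it in all 360 min libraries.

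At 30 min 2 of 35 genes fell against 0 min and 0 rose, where 0.765% of all genes passed, 0.585% lower. PFKFB3, the isoform whose kinase activity most exceeds its phosphatase activity, had 7.39, 9.09 and 8.67 CPM at 30 min, against 12.4, 13.8 and 12.9 CPM at 0 min. It fell by 0.64 (SE 0.13, adjusted p = 0.041) on the log2 scale in the edgeR test. PCK1, whose enzyme turns oxaloacetate into phosphoenolpyruvate, had 20, 19 and 18.9 CPM at 30 min, against 23, 24.9 and 26.2 CPM at 0 min, and fell by 0.36 (SE 0.06, adjusted p = 0.015). In both genes all 30 min libraries lay below all untreated ones, as they did in 5 of 35 genes and in 7.5% of all genes.

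Both calls depended on single libraries and on the model. For PFKFB3 the log2 fold change ranged over -0.71 to -0.56 across the alternatives. It lost its call without any 1 of the 6 libraries of these groups, with adjusted p = 0.062, 0.17 and 0.13 in edgeR without 0 min replicates 1, 2 and 3. Without 30 min replicates 1, 2 and 3 the adjusted p was 0.17, 0.083 and 0.13. PCK1 (-0.40 to -0.31) lost its call without 0 min replicate 2 or 3 (adjusted p = 0.078 and 0.098) and without 30 min replicate 2 or 3 (0.08 and 0.083). PFKFB3 also lost its call with a term for the mitochondrial share (0.055), and PCK1 with the 30 and 0 min libraries fitted alone (0.067). Within the higher and the lower mitochondrial share, log2 ratios of means were -0.48 and -0.85 for PFKFB3 and -0.28 and -0.36 for PCK1. The median over the 35 genes was -0.02, and the next gene by size with over 100 counts in every library was HK2 at -0.13 ± 0.04 (adjusted p = 0.3), with 266, 261 and 256 CPM at 30 min.

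Set directly against 10 min, 5 of 35 genes were lower at 30 min and 0 were higher, where 0.574% of all genes passed, 0.411% lower. They were the hexokinase gene HK2, PFKFB3 and PFKFB4, the neuron-type enolase gene ENO2 and PCK1. Log2 fold changes lay below 0 for 31 of 35, with a median of -0.08, while 51.1% of all genes tested lay above 0 and their median was 0.003. With scaling to total counts 30 of 35 lay below 0, while 59.8% of all genes lay above 0. The 10 min libraries that stood high against 0 min are the same that are set against 30 min here.

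HK2 had 266, 261 and 256 CPM at 30 min, against 354, 315 and 338 CPM at 10 min (-0.36, SE 0.04, adjusted p = 0.0016, edgeR). PFKFB4 had 44.1, 38.9 and 43.9 CPM at 30 min, against 61.2, 51.7 and 59.1 CPM at 10 min (-0.44, SE 0.06, adjusted p = 0.0074). PFKFB3 had 7.39, 9.09 and 8.67 CPM at 30 min, against 17.4, 12.1 and 17.8 CPM at 10 min (-0.92, SE 0.13, adjusted p = 0.0068). No groups overlapped, and replicate 2 was the lowest 10 min library in all 3 genes. PCK1 had 20, 19 and 18.9 CPM at 30 min, against 24.7, 25.4 and 27.7 CPM at 10 min (-0.43, SE 0.06, adjusted p = 0.0078). For ENO2 these were 108, 105 and 108 CPM at 30 min and 140, 122 and 133 CPM at 10 min (-0.30, SE 0.05, adjusted p = 0.031). Here too every 30 min library lay below every 10 min library, as in 14 of 35 genes (8.96% of all genes), and in 1 of 35 every one lay above (8.48% of all genes).

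HK2, PFKFB3, PFKFB4 and PCK1 were called in 15 of 15 alternatives, and DESeq2 also called PGK1 (-0.17, adjusted p = 0.0028). ENO2 lost its call without 10 min replicate 1 (edgeR adjusted p = 0.15) or 3 (0.11) and without 30 min replicate 1, 2 or 3 (0.071, 0.13 and 0.086). Among the libraries of higher mitochondrial share alone, with 2 at 30 min and 3 at 10 min, log2 ratios of means were -0.38 for HK2, -0.83 for PFKFB3, -0.47 for PFKFB4, -0.45 for PCK1 and -0.31 for ENO2.

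**Figure D3:**
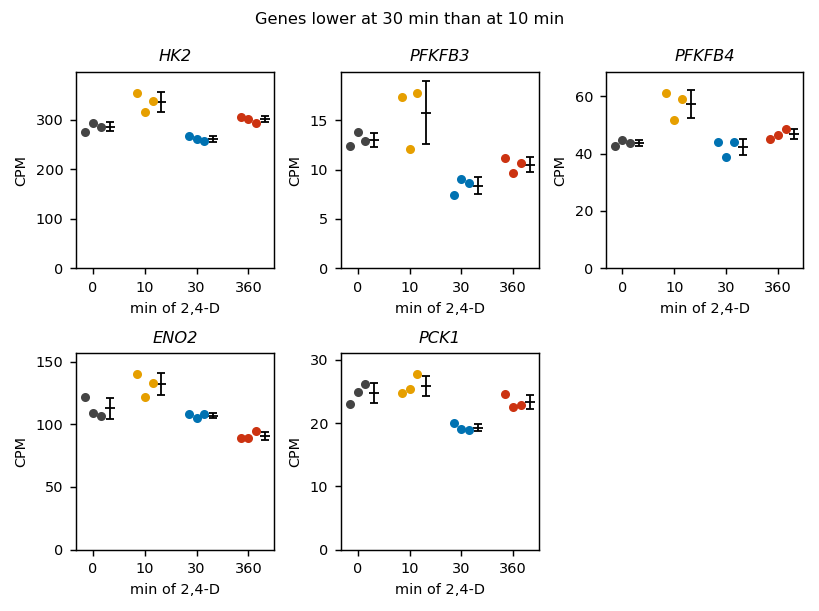
CPM of the 5 genes that were lower at 30 min than at 10 min, in each library by exposure time (points; black bars are mean ± SD, n = 3; axes start at 0). The 30 min libraries lie below all 10 min libraries in each panel, and for HK2, PFKFB3 and PCK1 also below all untreated libraries.

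Promoter windows are shown for 4 of these 5 genes, which were chosen by their calls at 30 min against 10 min. The windows run from 250 bases before to 50 after the start of transcription, from RefSeq on GRCh38.p14, and where a gene had several, the one nearest to its GENCODE start was taken. That start of transcription lay 146, 13, 5212 and 835 bases from the GENCODE gene start for HK2, PFKFB3, PFKFB4 and ENO2. Capitals mark ACGTG and GCGTG on either strand (read as CACGT and CACGC on the other strand), the core motif of hypoxia-inducible factors. ACGTG also lies within the E-box CACGTG.
HK2: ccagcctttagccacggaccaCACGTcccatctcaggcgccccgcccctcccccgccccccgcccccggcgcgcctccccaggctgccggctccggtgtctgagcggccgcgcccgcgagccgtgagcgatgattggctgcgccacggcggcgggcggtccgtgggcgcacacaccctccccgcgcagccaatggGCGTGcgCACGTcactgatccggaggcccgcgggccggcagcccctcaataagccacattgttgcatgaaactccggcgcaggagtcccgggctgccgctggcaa
PFKFB3: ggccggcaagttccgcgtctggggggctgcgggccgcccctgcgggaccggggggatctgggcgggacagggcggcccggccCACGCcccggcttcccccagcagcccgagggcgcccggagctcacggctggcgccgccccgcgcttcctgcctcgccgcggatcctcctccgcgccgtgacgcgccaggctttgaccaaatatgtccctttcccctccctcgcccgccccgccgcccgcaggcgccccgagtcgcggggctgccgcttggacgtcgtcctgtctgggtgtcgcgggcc
PFKFB4: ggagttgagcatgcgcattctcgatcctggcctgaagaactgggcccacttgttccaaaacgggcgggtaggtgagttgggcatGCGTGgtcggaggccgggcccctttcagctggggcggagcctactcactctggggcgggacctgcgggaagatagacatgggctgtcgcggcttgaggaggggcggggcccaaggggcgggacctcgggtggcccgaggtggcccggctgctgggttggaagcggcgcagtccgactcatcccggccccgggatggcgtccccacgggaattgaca
ENO2: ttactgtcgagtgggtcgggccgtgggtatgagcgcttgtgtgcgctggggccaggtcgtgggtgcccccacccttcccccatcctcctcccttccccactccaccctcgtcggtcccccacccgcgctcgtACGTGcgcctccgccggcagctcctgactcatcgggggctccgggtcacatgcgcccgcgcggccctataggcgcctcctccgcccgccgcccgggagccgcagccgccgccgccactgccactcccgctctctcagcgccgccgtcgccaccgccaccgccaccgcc
HK2 (chr2:74833877-74834176, plus strand) holds 2 copies of ACGTG and 1 of GCGTG. PFKFB3 (chr10:6144671-6144970, plus strand) and PFKFB4 (chr3:48556754-48557053, minus strand) hold 1 copy of GCGTG each, and ENO2 (chr12:6914330-6914629, plus strand) holds 1 of ACGTG. None of the 4 windows holds the whole E-box CACGTG or the cyclic AMP response element TGACGTCA. Of 34943 windows of the same length, 48.4% hold ACGTG or GCGTG, as do 22 of the 32 windows matched to the 37 genes. CACGTG stands in 7.23% of all windows and in 4 of 32. A match describes letters in these windows only.

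At 360 min 3 of 35 genes rose and 6 fell against 0 min, where 8.89% and 9.19% of all genes did (18.1% in either direction). By role, 2 of 3 transporters and 3 of 10 genes of upper glycolysis fell, with 0 higher in either list. Of 9 tested genes of lower glycolysis, PGAM1 rose and ENO2 fell. Of 5 tested glycogen genes, 2 rose, and none of the 4 PFKFB and 4 gluconeogenic genes passed in this fit. PCK2 passed in DESeq2 (-0.12, adjusted p = 0.043), with scaling to total counts (0.049) and with both groups fitted alone (0.032), and FBP1 without 0 min replicate 1 (0.046). The groups did not overlap in 7 genes that were higher and 10 that were lower, where 18.3% and 17.3% of all genes did not. The median log2 fold change of the 35 was -0.02, against 0.001 over all genes.

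PFKP, the platelet-type phosphofructokinase gene, had 29.7, 27.9 and 29.6 CPM at 360 min, against 40.8, 39.6 and 39.3 CPM at 0 min, and fell by 0.46 (SE 0.04, adjusted p = 1.5e-05) on the log2 scale (edgeR). Its share of the phosphofructokinase level per length was 17.5% ± 0.461 at 360 min and 22.3% ± 0.441 at 0 min (SD, n = 3), and PFKL, the main isoform, had a log2 fold change of -0.02 ± 0.04. SLC2A2 had 39.9, 41.6 and 38.9 CPM at 360 min, against 47.8, 53.6 and 50.7 CPM at 0 min (-0.34, SE 0.05, adjusted p = 0.00057). The lactate exporter gene SLC16A3 had 663, 657 and 679 CPM at 360 min, against 812, 792 and 781 CPM at 0 min (-0.25, SE 0.04, adjusted p = 0.0013). The 360 min libraries of these genes lay below all others of any time. SLC16A1 stood at 0.11 ± 0.05 and did not pass (adjusted p = 0.16), except without 0 min replicate 3 (adjusted p = 0.049).

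ENO2 had 89.4, 88.8 and 94.8 CPM at 360 min, against 122, 109 and 107 CPM at 0 min (-0.31, SE 0.05, adjusted p = 0.0018, edgeR), while ENO1 stood at 0.05 ± 0.03 (adjusted p = 0.43). PGAM1, whose enzyme acts between PGK1 and enolase, had 510, 501 and 541 CPM at 360 min, against 438, 467 and 472 CPM at 0 min, and rose by 0.17 (SE 0.04, adjusted p = 0.0075). These groups were separate. PFKP, SLC2A2, SLC16A3, ENO2 and PGAM1 were called in 15 of 15 alternatives. Their log2 fold changes ranged over -0.47 to -0.44 for PFKP, -0.39 to -0.30 for SLC2A2, -0.27 to -0.24 for SLC16A3, -0.34 to -0.25 for ENO2 and 0.13 to 0.19 for PGAM1.

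The other 4 calls at 360 min were smaller and less stable. UGP2, which makes the UDP-glucose used for glycogen, had 152, 154 and 146 CPM at 360 min, against 127, 136 and 141 CPM at 0 min (0.16, SE 0.04, adjusted p = 0.021, edgeR). PGM1, which interconverts glucose 1-phosphate and glucose 6-phosphate, had 131, 130 and 136 CPM at 360 min, against 123, 124 and 120 CPM at 0 min (0.12, SE 0.03, adjusted p = 0.028). Both genes belong to the glycogen list and their groups were separate. HKDC1 had 175, 175 and 174 CPM at 360 min, against 184, 189 and 183 CPM at 0 min (-0.09, SE 0.03, adjusted p = 0.038). ALDOC, the brain-type aldolase gene, had 53.5, 52.1 and 55.8 CPM at 360 min, against 56.4, 58.9 and 60.3 CPM at 0 min (-0.12, SE 0.04, adjusted p = 0.048). The call of UGP2 ended on omission of 0 min replicate 1 (adjusted p = 0.096) and of 360 min replicates 1 and 2 (0.063 and 0.1). That of PGM1 ended on omission of untreated replicate 1 or 3 (0.064 and 0.1) or, at 360 min, of replicate 1, 2 or 3 (0.053, 0.061 and 0.13). That of HKDC1 ended on omission of untreated replicate 2 or 3 (0.13 and 0.064) or, at 360 min, of replicate 1, 2 or 3 (0.085, 0.069 and 0.1). That of ALDOC ended on omission of untreated replicate 2 or 3 (0.12 and 0.17) or, at 360 min, of replicate 1 or 2 (0.13 and 0.13). With no filter on low counts all 4 lost their calls, at 0.064 for UGP2, 0.095 for PGM1, 0.23 for HKDC1 and 0.13 for ALDOC. With both groups fitted alone UGP2 (0.065), HKDC1 (0.07) and ALDOC (0.065) did, and ALDOC also did with a term for the mitochondrial share (0.054).

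All 9 genes kept their sign within the higher and the lower mitochondrial share, with 1 library per group on the higher side. PFKP was at -0.46 and -0.45 on these sides, PGAM1 at 0.31 and 0.11, and ALDOC at -0.02 and -0.17.

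**Figure D4:**
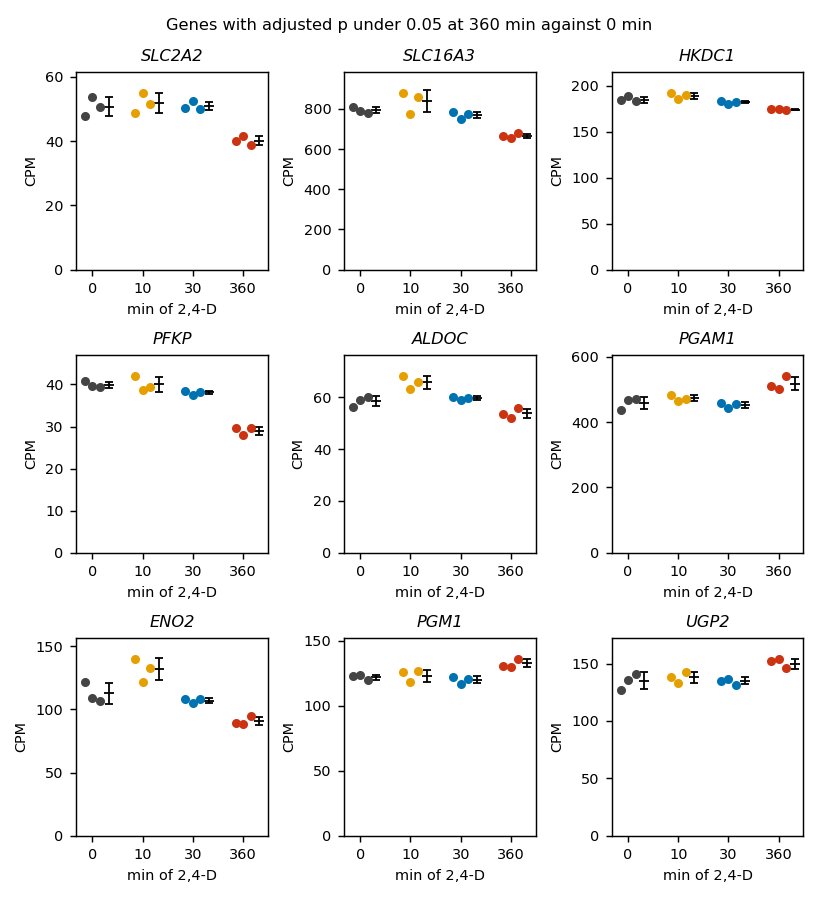
CPM of the 9 genes called at 360 min against 0 min, in each library by exposure time (points; black bars are mean ± SD, n = 3; axes start at 0). PFKP, SLC2A2, SLC16A3 and ENO2 at 360 min lie below the libraries of all other times, and PGAM1 at 360 min lies above them.

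Against 30 min, 6 of 35 genes were higher at 360 min and 8 lower, where 11.4% and 11.3% of all genes were (22.7% in either direction). Lower here as well as against 0 min were PFKP (-0.39, SE 0.04, adjusted p = 2.6e-05, edgeR), SLC2A2 (-0.34), SLC16A3 (-0.21), ENO2 (-0.23) and ALDOC (-0.15). Higher in both were PGAM1 (0.20, SE 0.04, adjusted p = 0.0028), PGM1 (0.15) and UGP2 (0.16). The 2 comparisons share the 360 min libraries.

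A further 6 genes passed against 30 min and not against 0 min. HK2 had 306, 302 and 294 CPM at 360 min, against 266, 261 and 256 CPM at 30 min (0.20, SE 0.04, adjusted p = 0.0039, edgeR). PCK1 had 24.6, 22.5 and 22.8 CPM at 360 min, against 20, 19 and 18.9 CPM at 30 min (0.27, SE 0.06, adjusted p = 0.0064). Against 0 min, the 360 min log2 fold changes of these genes were 0.07 ± 0.04 for HK2 and -0.08 ± 0.06 for PCK1 (adjusted p = 0.27 and 0.4). Both were thus lower at 30 min than at 10 min and higher again at 360 min than at 30 min. PFKFB2, the heart-type isoform gene, had 35.2, 34.8 and 34.9 CPM at 360 min, against 41.1, 37.9 and 38.5 CPM at 30 min (-0.16, SE 0.04, adjusted p = 0.011). PCK2 had 81.6, 86.4 and 85.1 CPM at 360 min, against 91.1, 89.6 and 97.4 CPM at 30 min (-0.14, SE 0.04, adjusted p = 0.027). None of these groups overlapped, and over the 35 genes this held for 14 that were higher and 10 that were lower (19.8% and 20% of all genes, 39.8% in either direction).

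PKM had 1030, 1030 and 1060 CPM at 360 min, against 1010, 927 and 956 CPM at 30 min (0.11, SE 0.04, adjusted p = 0.047, edgeR). It was called in only 4 of 15 alternatives, and not on omission of 30 min replicate 2 or 3 (adjusted p = 0.16 and 0.14) or, at 360 min, of replicate 1, 2 or 3 (0.081, 0.12 and 0.15). FBP1, which overlaps the more abundant PCAT7, had 0.248, 0.237 and 0.351 CPM at 360 min, against 0.579, 0.594 and 0.587 CPM at 30 min (-1.05, SE 0.26, adjusted p = 0.012), and lost its call without 360 min replicate 1 (0.057). PKM was at 0.18 on the side of the higher mitochondrial share and at 0.03 on the other. PFKFB2 lost its call without 30 min replicate 1 (0.056), and ALDOC without 360 min replicate 1 or 2 (0.056 and 0.052) and, at the threshold itself, without 30 min replicate 1. That of PCK2 ended on omission of 30 min replicate 3 (0.088) and, at 360 min, of replicates 1 and 3 (0.11 and 0.061), and UGP2 without 30 min replicate 3 or 360 min replicate 2 (0.08 for both).

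The PFKFB genes followed different courses. PFKFB4 averaged 43.7 ± 1.09, 57.3 ± 5.02, 42.3 ± 2.92 and 46.8 ± 1.79 CPM at 0, 10, 30 and 360 min (SD, n = 3). PFKFB3 averaged 13 ± 0.71, 15.8 ± 3.18, 8.38 ± 0.885 and 10.5 ± 0.771 CPM at these times. PFKFB3 took 9.51% ± 1.27 of the PFKFB level per length at 30 min and 14.2% ± 0.182 at 0 min. At 360 min all its libraries still lay below all untreated ones (-0.31 ± 0.13), without a call in the edgeR fit over all times (adjusted p = 0.12). It was called with the 360 and 0 min libraries fitted alone (adjusted p = 0.03) and, just under the threshold, in DESeq2 (0.05). Against 30 min, DESeq2 called it higher at 360 min (0.33, adjusted p = 0.033), while the edgeR fit over all times did not (0.088). PFKFB1 stood at 0.10 ± 0.12, 0.09 ± 0.11 and -0.22 ± 0.11 at 10, 30 and 360 min against 0 min, and PFKFB2 at 0.09 ± 0.04, 0.10 ± 0.04 and -0.06 ± 0.04, none of which passed.

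Of the abundant glycolytic genes, PGAM1 was called at 360 min, and PGK1 at 10 min in DESeq2 alone, as given above. None of the following passed against 0 min in the edgeR fit. GAPDH had log2 fold changes of 0.11 ± 0.03, 0.01 ± 0.03 and 0.05 ± 0.03 (SE) at 10, 30 and 360 min, and LDHA, whose enzyme makes lactate, of 0.10 ± 0.04, 0.00 ± 0.04 and 0.05 ± 0.04. ENO1 had 4520, 4820 and 4720 CPM at 0 min, 5050, 4690 and 4970 CPM at 10 min, 4770, 4500 and 4670 CPM at 30 min and 4840, 4780 and 4890 CPM at 360 min, and each later group overlapped that at 0 min. For PFKL these were 253, 258 and 248 CPM at 0 min, 269, 255 and 259 CPM at 10 min, 258, 235 and 261 CPM at 30 min and 246, 245 and 259 CPM at 360 min. Its groups at later times likewise overlapped that at 0 min. ALDOA had 1470, 1520 and 1540 CPM at 0 min, 1600, 1510 and 1550 CPM at 10 min, 1490, 1400 and 1460 CPM at 30 min and 1340, 1520 and 1450 CPM at 360 min. Its log2 fold changes stood at 0.04 ± 0.04, -0.06 ± 0.04 and -0.07 ± 0.04, and GPI, the glucose 6-phosphate isomerase gene, at 0.08 ± 0.04, -0.03 ± 0.04 and 0.02 ± 0.04. Misses of the threshold do not show that the levels were equal. Of the liver isoforms, PKLR stood at 0.11 ± 0.06, 0.05 ± 0.05 and -0.02 ± 0.05, and PYGL at 0.10 ± 0.04, 0.01 ± 0.04 and 0.00 ± 0.04. TPI1 stood at 0.12 ± 0.05, 0.02 ± 0.05 and 0.13 ± 0.05, and passed at 360 min in DESeq2 (adjusted p = 0.035). PC was at 0.03 ± 0.04, -0.03 ± 0.04 and -0.10 ± 0.04, and ENO3 at 0.01 ± 0.08, -0.04 ± 0.08 and -0.08 ± 0.08. PFKM and PPP1R3B, with few counts, had wider errors, at 0.28 ± 0.11, -0.12 ± 0.11 and 0.15 ± 0.11 for PFKM and 0.48 ± 0.29, -0.16 ± 0.28 and 0.42 ± 0.28 for PPP1R3B.

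**Figure D5:**
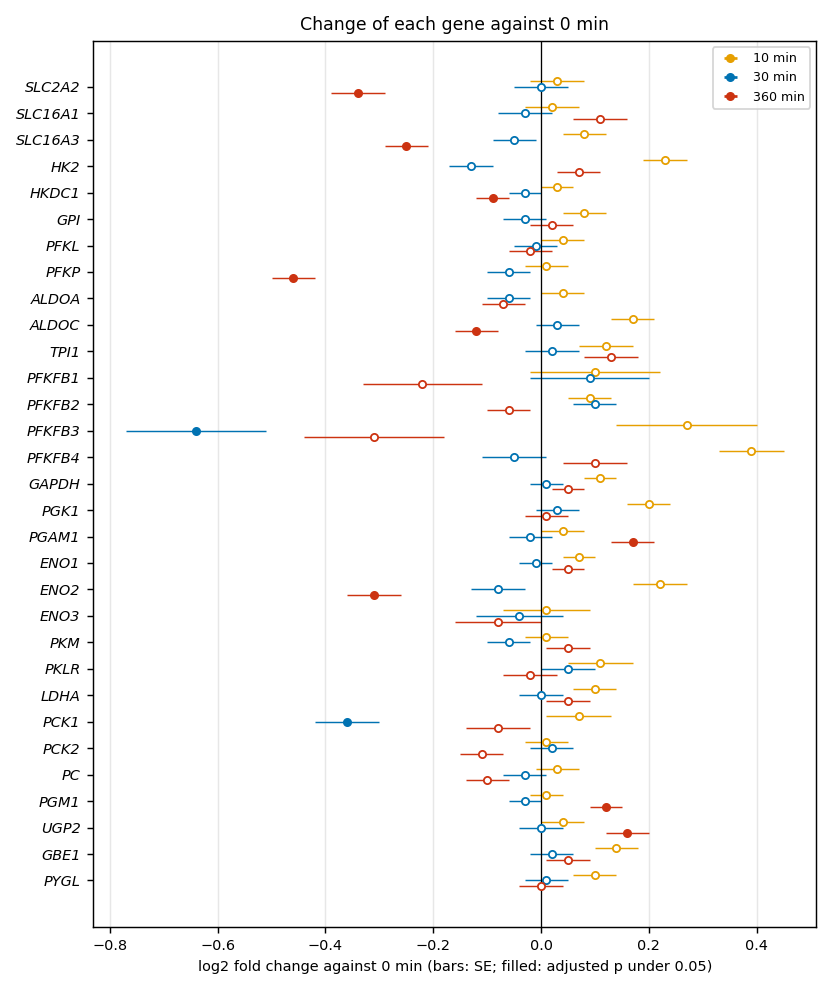
Log2 fold change against 0 min (points; bars are SE) of the 31 genes with at least 100 counts in every library, at 10, 30 and 360 min. Filled points, PFKFB3 and PCK1 at 30 min and 9 genes at 360 min, passed at an adjusted p under 0.05, and all 10 min points lie above 0.

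Of 89 other genes of glucose metabolism, 79 were tested. At 10 min none passed against 0 min in edgeR, with an unadjusted p under 0.05 for 7 of the 79 (10.9% of all genes), and DESeq2 called 2. For the counts under DESeq2 and other alternatives in this paragraph, the share of all genes is not given. At 30 min the glucose transporter gene SLC2A3 was the 1 gene called in the edgeR fit, with 183, 167 and 183 CPM at 30 min, against 220, 225 and 250 CPM at 0 min (-0.38, SE 0.06, adjusted p = 0.0073). DESeq2 called 3, adding MLX, a partner of glucose-responsive transcription factors (-0.15, adjusted p = 0.0088), and PDP2 (-0.28, adjusted p = 0.027). MLX was also called with scaling to total counts (0.034), a stricter filter (0.039), a term for the mitochondrial share (0.03) and limma voom (0.048). Like HK2 and PCK1, SLC2A3 was lower at 30 min than at 10 min (-0.49, SE 0.06, adjusted p = 0.0018) and higher at 360 min than at 30 min (0.42, SE 0.06, adjusted p = 0.00025). At 360 min 10 of the 79 rose and 7 fell against 0 min (21.5%, beside 18.1% of all genes), and without 360 min replicate 2 or 3 11 of the 79 passed.

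SLC2A1 (GLUT1, the main glucose importer of many cancer cells) had 405, 412 and 415 CPM at 360 min, against 569, 590 and 582 CPM at 0 min (-0.50, SE 0.03, adjusted p = 1.8e-06, edgeR). SLC2A10 fell by 0.30 (SE 0.04, adjusted p = 0.00025), and SLC37A4, whose protein carries glucose 6-phosphate into the endoplasmic reticulum, rose by 0.22 (SE 0.03, adjusted p = 0.00063). The transporter gene SLC2A8 rose by 0.23 (SE 0.06, adjusted p = 0.023), a call held in 10 of 15 alternatives and lost without 0 min replicate 1 or 3 (0.088 and 0.058) or, at 360 min, without replicate 1, 2 or 3 (0.056, 0.074 and 0.066). SLC2A3 stood at 0.03 ± 0.06. Glucose transporter genes thus stood on both sides of 0 at 360 min. Of 24 other glycogen genes 4 rose and 1 fell, where 8.89% and 9.19% of all genes did. GYG2, whose protein primes glycogen, rose by 0.28 (SE 0.05, adjusted p = 0.0013).

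Of 13 tested genes that bring pyruvate into mitochondria or act on it there, 4 rose at 360 min against 0 min and 0 fell, beside 8.89% and 9.19% of all genes. The pyruvate carrier gene MPC1 rose by 0.30 (SE 0.05, adjusted p = 0.00088) in edgeR and PDP2, a phosphatase that activates pyruvate dehydrogenase, by 0.46 (SE 0.07, adjusted p = 0.00051). In the pentose phosphate pathway 2 of 7 genes fell, among them the transketolase gene TKT by 0.14 (SE 0.03, adjusted p = 0.0078). SLC2A1, SLC2A10, SLC37A4, GYG2, MPC1, PDP2 and TKT were called in 15 of 15 alternatives. The lists were not tested as sets.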

How the data were processed

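The authors deposited raw read counts per gene for 12 libraries, per the file headers. HISAT2, DESeq2 and the genome build GRCh38 are named in the submitters' processing notes; the counting program, annotation and strand setting were not stated in the sources used here. Of 60612 gene IDs, 58394 (96.34%) were found in GENCODE release 29, which gave exon lengths and overlaps. Replicate libraries differed beyond sampling noise (chi-square per degree of freedom 5.97 to 33.61) and none was counted as a duplicate.

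Genes were filtered with filterByExpr, scaled by TMM and tested with edgeR 4.0.16 (R 4.3.3) in 1 quasi-likelihood fit with a term per time and 8 residual degrees of freedom. P-values were Benjamini-Hochberg adjusted over 17779 genes and called under 0.05; SEs are the log2 fold change divided by the square root of F. CPM values are TMM-scaled. Alternatives used limma 3.58.1, DESeq2 1.42.0, other scalings, filters and sample sets, and left out single libraries; the test was checked on simulated data. Genes and lists were chosen with earlier results of these data known. Values in every library are given for genes called in any comparison and for the most abundant isoforms; other pathway genes were named by smallest p, at most 4 per list, and G6PC1, GYS1, PYGB, MLX and SLC2A8 after their values were seen. Some genes are not reported here.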

Additional observations from a re-analysis of the deposited data

Results flagged for a closer look

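The effect against 0 min differed between consecutive times in 19 cases, each tested as the direct contrast of the later with the earlier time (edgeR, adjusted p under 0.05); values are log2 differences. The 0 min libraries do not enter the difference itself but share in the estimate of the spread behind its p. With the 360 and 30 min libraries fitted alone, PKM lost its call (adjusted p = 0.069) and SLC16A1 (0.025), TPI1 (0.038) and PFKFB3 (0.046) gained one. At 30 min against 10 min, the difference was -0.36 for HK2, -0.92 for PFKFB3, -0.44 for PFKFB4, -0.30 for ENO2 and -0.43 for PCK1. The 10 min libraries were the smallest of the series, and the part of depth in these values was not tested.

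At 360 min against 30 min, the difference was positive for HK2 at 0.20, PGAM1 at 0.20, PKM at 0.11, PCK1 at 0.27, PGM1 at 0.15 and UGP2 at 0.16. It was negative for SLC2A2 at -0.34, SLC16A3 at -0.21, PFKP at -0.39, ALDOC at -0.15, PFKFB2 at -0.16, ENO2 at -0.23, PCK2 at -0.14 and FBP1 at -1.05. FBP1 had at most 49 counts in a library.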

How the results depend on the processing

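No called gene changed sign under any alternative. The shares of all genes called under the alternatives are not given here, so the counts below have no background beside them. At 10 min against 0 min, where edgeR called 0 of the 35 tested genes, the count was 1 with no filter on low counts, 5 with DESeq2 and 0 to 2 when 1 library was left out. At 30 min against 0 min it was 2 in the reported fit, and 1 with a term for the mitochondrial share, 1 with the 2 groups fitted alone and 0 to 1 with 1 library left out. At 360 min against 0 min it was 9, and 5 with no filter, 12 with DESeq2 and 5 to 8 with 1 library left out. For 30 min against 10 min (5) and 360 min against 30 min (14) the range with 1 library left out was 4 to 5 and 10 to 13. In these comparisons DESeq2 called 6 and 16, and limma voom 5 and 18. The cause of these changes was not tested.

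Deviations from the group means went together at most weakly between libraries with the same replicate number (r of -0.05 to 0.10 over 18 pairs, median 0.0275). Over 36 pairs with different numbers r was -0.115 to 0.092, with a median of -0.0185. The numbers were not taken as pairs in the reported fit, and not every library correlated best with one of its own number. With the replicate number as a block, the counts were 0, 1 and 8 at 10, 30 and 360 min against 0 min, 5 at 30 min against 10 min and 13 at 360 min against 30 min. The calls lost under the block were those of PFKFB3 at 30 min (0.084) and HKDC1 at 360 min against 0 min (0.06) and of PKM at 360 min against 30 min (0.053; adjusted p in each). Depth limits HK1, FBP1, PPP1R3B, LDHB and GYS2, the 5 least counted genes.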
